A study of Mus musculus with 24 samples.

Results

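Described here are 10 genes chosen by their CPM (the count of a gene scaled to library size), which was higher in Cre than in GFP libraries of the nucleus accumbens in both sexes of Dnmt3a-floxed mice. They are Rasl10a, Rprml, Zfp703, Csf2ra, C1qtnf4, Ier5l, Zfp865, Akt1s1, Mex3a and Icam5. They are 10 of the 37991 genes in the deposited count table, and all 10 passed the filter on low counts in both experiments, among 17597 genes tested in floxed and 15249 in wild-type mice. The genes were picked for their Cre against GFP values, so those values are given as a description, with no test.

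RNA was sequenced from punches of the nucleus accumbens, the ventral striatum, although the protocol also names dorsal striatum. The 8 groups held 3 libraries each, and a library pooled the mRNA of 4 mice. Cre females, GFP females, Cre males and GFP males were homozygous for a loxP-flanked Dnmt3a allele (Dnmt3a2lox/2lox) on a C57BL/6J background, all were stressed, and an adeno-associated virus (AAV) carried Cre or only GFP. Stressed females, control females, stressed males and control males were wild-type C57BL/6J mice. The labels name neither the promoter that drives Cre nor the share of cells infected nor the age of the mice. The 2 experiments differ together in genotype, virus and depth, so no fold change was computed between them. Floxed libraries had total counts of 28132563 to 59829070, and wild-type libraries 7116123 to 12145551. A low level in bulk tissue can mean fewer cells of a type or less RNA per cell, which cannot be told apart here.

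Dnmt3a is a DNA methyltransferase that adds methyl groups to cytosines that were not methylated before, in neurons at CG and at other sites. AAV-Cre removes the flanked part of the gene in infected cells, and cells without the virus keep it. Promoters rich in CG pairs, known as CpG islands, are mostly unmethylated in normal tissue, and many are used in a wide range of cell types.

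The targeted gene, Dnmt3a, was counted in every library and was called lower with Cre in males but not in females, a difference between the sexes that was not tested. Dnmt3a stood at 155, 150 and 140 CPM in Cre females, against 162, 169 and 155 CPM in GFP females, and these groups overlapped (log2 difference −0.12, SE 0.06, adjusted p = 0.829, edgeR quasi-likelihood test). It stood at 143, 137 and 138 CPM in Cre males, against 182, 164 and 171 CPM in GFP males, and fell by 0.30 on the log2 scale (SE 0.06, adjusted p = 0.0149). That call was lost without GFP male library 1 or library 3 (adjusted p = 0.058 in both cases). Counts were summed over the whole gene, so the deleted exons could not be separated from the rest.

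The 10 genes were rich in G and C. How they were taken from the genes higher with Cre in both sexes was not given, and the Cre minus GFP difference was itself tied to GC content over all genes, so their composition is a description that does not stand apart from the selection. Their longest transcripts held a median of 60.6% G and C (53.1% to 70.7%), against 49.7% over 16760 tested genes with a known sequence. Of the 10, 7 lay in the top GC decile of tested genes, 9 in the top 2 deciles, and all 10 above the median. CG pairs were also dense, at a median of 6.30 per 100 bases of transcript against 2.34 over all tested genes. C1qtnf4 had the highest GC content among the 10, at 70.7%, and Mex3a the lowest, at 53.1%. Their median transcript length was 2480 bases (1010 to 7503), against 3201 bases over tested genes. Rprml and Rasl10a lie on chromosome 11, C1qtnf4 and Ier5l on chromosome 2, Zfp865 and Akt1s1 on chromosome 7, Mex3a on chromosome 3, Zfp703 on chromosome 8, Icam5 on chromosome 9 and Csf2ra on chromosome 19.

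Promoter sequence was found for 7 of the 10 genes in the RefSeq table (build GRCm38.p6, 250 bases before to 50 after the start). These 7 promoters held 20 to 36 CG pairs, with a median of 23, against a median of 7 over 32851 promoters of the same length. The 32851 promoters were not limited to genes tested here, and promoters of tested genes alone were not compared. The windows of 4 genes are shown with CG in capitals, 5′ to 3′ on the strand of the gene. Rasl10a had the largest Cre minus GFP difference in males and Ier5l the largest in females, Mex3a had the smallest in males, and Csf2ra holds the letters of a cyclic AMP response element. They lie at chr11:5057878-5058177 (plus strand) for Rasl10a, chr2:30474150-30474449 (minus strand) for Ier5l, chr3:88531696-88531995 (plus strand) for Mex3a and chr19:61228369-61228668 (minus strand) for Csf2ra.
Rasl10a: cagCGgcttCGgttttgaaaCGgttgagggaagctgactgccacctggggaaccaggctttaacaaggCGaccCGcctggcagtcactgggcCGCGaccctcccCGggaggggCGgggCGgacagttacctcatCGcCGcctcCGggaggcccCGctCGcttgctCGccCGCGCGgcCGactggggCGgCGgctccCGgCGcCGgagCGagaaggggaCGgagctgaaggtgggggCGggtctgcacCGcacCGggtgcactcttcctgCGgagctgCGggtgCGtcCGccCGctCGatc
Ier5l: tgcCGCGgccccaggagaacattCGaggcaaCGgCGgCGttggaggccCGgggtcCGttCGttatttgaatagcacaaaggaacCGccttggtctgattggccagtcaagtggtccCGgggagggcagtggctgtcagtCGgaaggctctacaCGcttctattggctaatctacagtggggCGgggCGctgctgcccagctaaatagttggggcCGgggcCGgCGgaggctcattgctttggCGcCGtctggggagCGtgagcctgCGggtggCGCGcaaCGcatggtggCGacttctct
Mex3a: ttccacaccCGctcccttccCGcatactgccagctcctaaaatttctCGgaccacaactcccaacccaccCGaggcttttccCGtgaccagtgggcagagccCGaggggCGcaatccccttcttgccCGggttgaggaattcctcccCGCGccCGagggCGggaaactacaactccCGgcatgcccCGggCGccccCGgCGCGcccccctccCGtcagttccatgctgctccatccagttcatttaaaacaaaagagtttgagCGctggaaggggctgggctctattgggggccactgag
Csf2ra: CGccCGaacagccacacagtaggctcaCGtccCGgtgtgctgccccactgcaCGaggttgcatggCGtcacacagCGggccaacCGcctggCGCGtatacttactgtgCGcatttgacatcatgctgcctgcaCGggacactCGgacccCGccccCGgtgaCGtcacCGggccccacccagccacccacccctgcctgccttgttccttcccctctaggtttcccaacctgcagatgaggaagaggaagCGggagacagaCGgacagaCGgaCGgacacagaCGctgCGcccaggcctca

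The Rasl10a window holds 36 CG pairs, a number reached by 6.23% of all promoters in the table, and the Ier5l window holds 26, reached by 16.9%. The Csf2ra window holds 23 and the Mex3a window 20, reached by 21.5% and 26.5% of promoters. The GC box GGGCGG, read on both strands (as GGGCGG or CCGCCC), occurred in 7 of 7 windows, against 35.7% of all promoters. The cyclic AMP response element TGACGTCA, which reads the same on both strands, occurred in the Csf2ra window alone among the 7, against 1.79% of all promoters. These matches describe letters in the window and are not measured binding sites.

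In the floxed mice, all 10 genes stood higher in each of the 3 Cre libraries than in each of the 3 GFP libraries of the same sex. Over all tested genes this held for 6.5% in females, 14.7% in males and 1.5% (264 genes) in both sexes, and the selection used this contrast. The median log2 difference of the 10 was 0.56 in females and 0.78 in males, against 0.00 over all tested genes in each sex. Differences were widest for Ier5l, C1qtnf4 and, in males, Rasl10a. When tested genes were ranked by the smaller of their 2 log2 differences, Ier5l stood at rank 12 and C1qtnf4 at rank 14, and the others lay between rank 105 (Rasl10a) and rank 996 (Mex3a). Values are CPM on library sizes scaled by trimmed mean (TMM), and SEs are those of the fitted log2 differences.

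**Figure D1:**
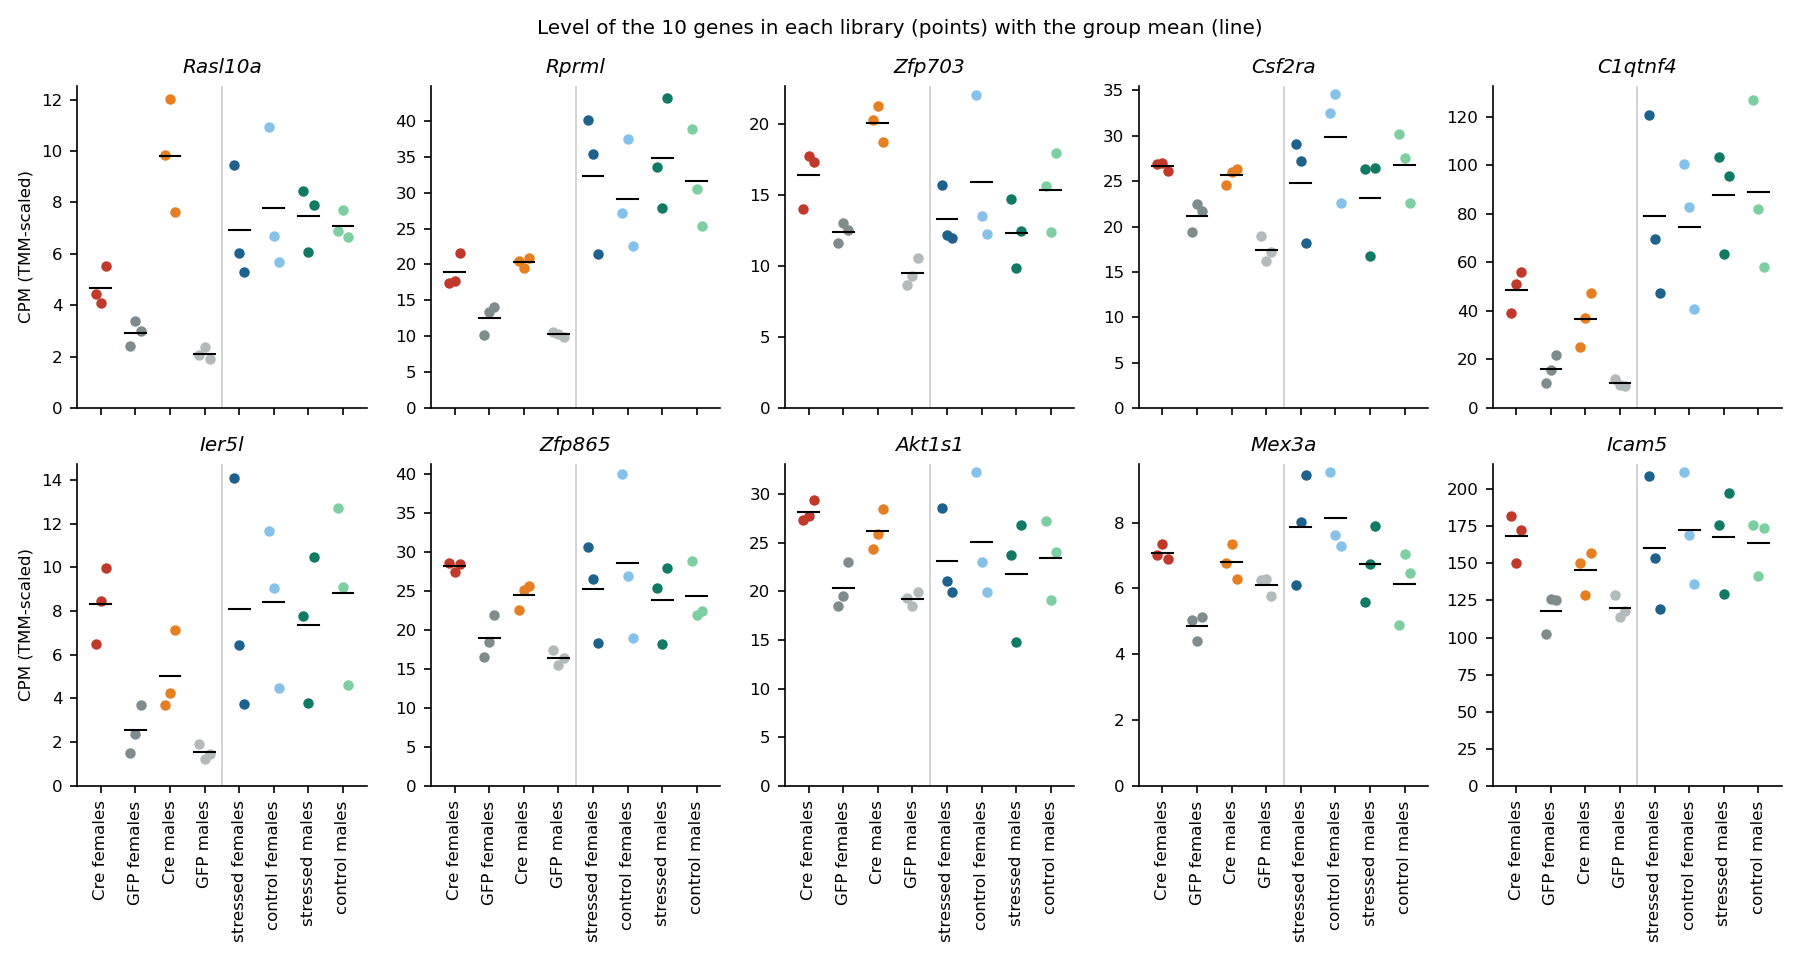
Level of each gene (CPM, linear axis from 0) in every library, as points in order of library number, with a line at the group mean, for the 4 floxed groups left of the grey divider and the 4 wild-type groups right of it. In each panel the Cre points lie above the GFP points of the same sex, narrowly so for Mex3a in males, while stressed and control points overlap.

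Genes of signalling from the cell surface come first. C1qtnf4, a secreted protein with C1q-like domains, stood at 39.2, 50.9 and 56.1 CPM in Cre females, against 10.2, 15.5 and 22.0 CPM in GFP females. It stood at 25.3, 37.3 and 47.4 CPM in Cre males, against 11.96, 9.42 and 9.13 CPM in GFP males. The lowest Cre library was above the highest GFP library in each sex, with log2 differences of 1.62 (SE 0.29) in females and 1.85 (SE 0.30) in males. Csf2ra, the ligand-binding subunit of the receptor for granulocyte-macrophage colony-stimulating factor (GM-CSF), stood at 26.9, 27.0 and 26.1 CPM in Cre females, against 19.4, 22.5 and 21.7 CPM in GFP females. It stood at 24.6, 26.0 and 26.4 CPM in Cre males, against 19.0, 16.2 and 17.2 CPM in GFP males. Its Cre libraries varied little, and the Csf2ra log2 differences were 0.33 (SE 0.07) in females and 0.55 (SE 0.07) in males. Icam5 encodes telencephalin, an adhesion molecule on dendrites of forebrain neurons. It stood at 182, 151 and 172 CPM in Cre females, against 102, 126 and 125 CPM in GFP females. It stood at 150, 129 and 157 CPM in Cre males, against 128, 114 and 118 CPM in GFP males, where the lowest Cre and highest GFP libraries nearly touched. The log2 differences of Icam5 were 0.52 (SE 0.10) in females and 0.27 (SE 0.10) in males.

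Genes that act inside the cell on growth signalling and the cell cycle were next. Rasl10a, a small GTPase of the Ras superfamily, stood at 4.45, 4.10 and 5.51 CPM in Cre females, against 2.40, 3.39 and 3.01 CPM in GFP females. It stood at 9.83, 12.03 and 7.62 CPM in Cre males, against 2.07, 2.36 and 1.89 CPM in GFP males. Its log2 difference was 0.68 (SE 0.19) in females and 2.23 (SE 0.20) in males, and the difference between the sexes was not tested. Akt1s1 encodes PRAS40, a substrate of Akt that inhibits the kinase complex mTORC1. It stood at 27.3, 27.8 and 29.4 CPM in Cre females, against 18.5, 19.5 and 23.0 CPM in GFP females. It stood at 24.4, 25.9 and 28.4 CPM in Cre males, against 19.3, 18.5 and 19.9 CPM in GFP males. The sexes had close log2 differences, at 0.47 (SE 0.08) in females and 0.45 (SE 0.08) in males. Rprml is a relative of Reprimo (Rprm), a p53-induced gene of cell cycle arrest. It stood at 17.5, 17.7 and 21.6 CPM in Cre females, against 10.2, 13.3 and 14.1 CPM in GFP females. It stood at 20.5, 19.6 and 20.9 CPM in Cre males, against 10.6, 10.3 and 9.94 CPM in GFP males. In males each Rprml group was tight, and the log2 differences were 0.60 (SE 0.11) in females and 0.98 (SE 0.12) in males.

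Regulators of transcription and RNA made up the rest. Zfp703, a zinc finger protein that represses transcription, stood at 14.0, 17.7 and 17.3 CPM in Cre females, against 11.6, 13.0 and 12.5 CPM in GFP females. It stood at 20.3, 21.2 and 18.7 CPM in Cre males, against 8.67, 9.29 and 10.6 CPM in GFP males. The Zfp703 log2 differences were 0.40 (SE 0.10) in females and 1.08 (SE 0.10) in males. Zfp865, another zinc finger protein, stood at 28.5, 27.5 and 28.5 CPM in Cre females, against 16.5, 18.5 and 21.9 CPM in GFP females. It stood at 22.5, 25.1 and 25.6 CPM in Cre males, against 17.4, 15.4 and 16.3 CPM in GFP males. Zfp865 had a log2 difference of 0.57 (SE 0.09) in each sex. Ier5l, a relative of the immediate early gene Ier5, stood at 6.47, 8.44 and 9.98 CPM in Cre females, against 1.52, 2.39 and 3.71 CPM in GFP females. It stood at 3.72, 4.27 and 7.12 CPM in Cre males, against 1.94, 1.21 and 1.45 CPM in GFP males. Ier5l spread widely within groups and had log2 differences of 1.71 (SE 0.33) in females and 1.71 (SE 0.35) in males. Mex3a, an RNA-binding protein with KH domains, stood at 7.002, 7.34 and 6.90 CPM in Cre females, against 5.03, 4.40 and 5.13 CPM in GFP females. It stood at 6.77, 7.34 and 6.30 CPM in Cre males, against 6.25, 6.29 and 5.76 CPM in GFP males. The Mex3a male groups nearly touched, with a log2 difference of 0.16 (SE 0.10), against 0.54 (SE 0.10) in females.

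Base composition moved with Cre across all genes. In males, 872 of all tested genes (4.96%) were called, 3.68% higher and 1.28% lower in Cre libraries. The top GC decile of tested genes had a median log2 difference of 0.19, and 207 of its 1676 genes (12.4%) were called higher in Cre males and 1 lower. The bottom GC decile had a median of −0.05, with 27 genes (1.61%) called higher and 38 lower. In females the medians were 0.08 in the top and −0.03 in the bottom decile, with 0 (0%) of 17597 genes called by edgeR in either direction (1049 at an unadjusted p under 0.05, 34 called by DESeq2).

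**Figure D2:**
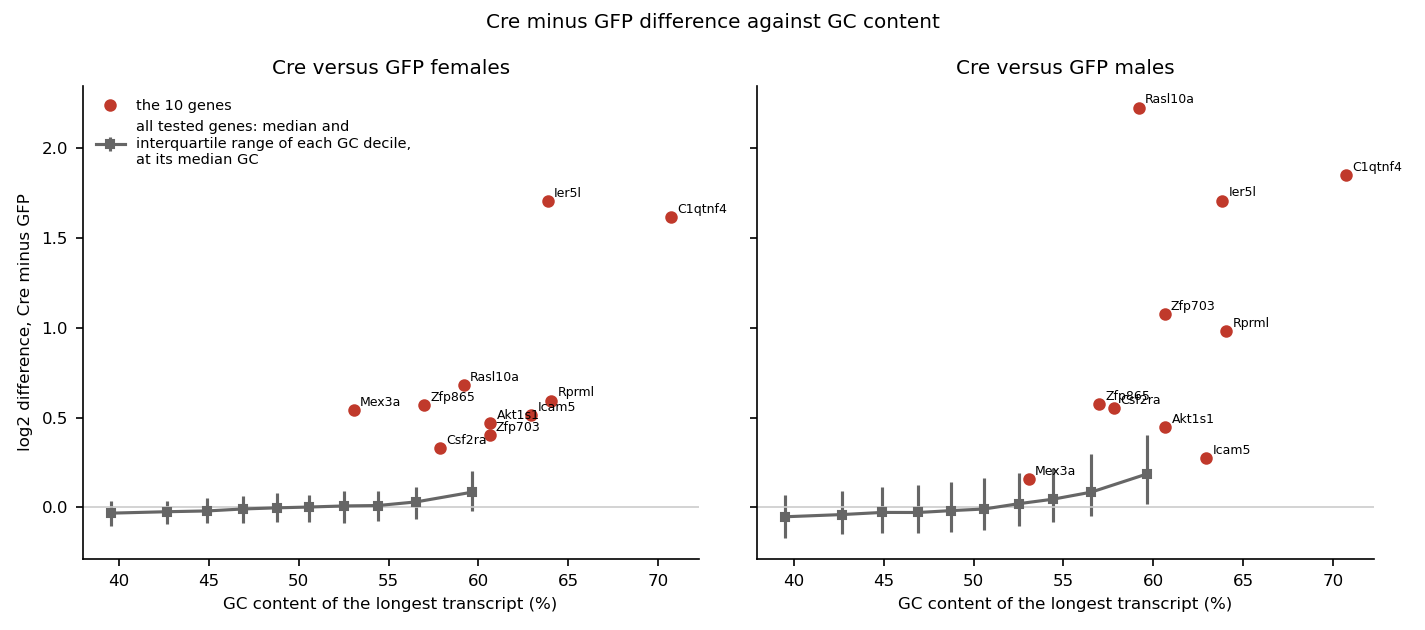
Log2 difference of Cre minus GFP (vertical axis) against GC content of the longest transcript (horizontal axis, percent) in females (left) and males (right). Grey squares and bars give the median and interquartile range of all tested genes in each GC decile, and red points the 10 genes. The grey medians are highest in the top decile, at 0.08 in females and 0.19 in males, and the red points were chosen for a high value on the vertical axis.

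A correction of each library for GC content lowered the log2 difference of all 10 genes in both sexes and left all 20 values above 0. The median fell to 0.48 in females and 0.60 in males. The largest differences remained large, at 1.57 (SE 0.30) in females and 1.44 (SE 0.31) in males for Ier5l, 1.32 (SE 0.23) and 1.37 (SE 0.23) for C1qtnf4, and 2.09 (SE 0.20) in males for Rasl10a. Icam5 was lowered to 0.03 (SE 0.09) in males and 0.37 (SE 0.09) in females. Akt1s1 was at 0.27 (SE 0.07) in males, Rprml at 0.70 (SE 0.10) and Zfp703 at 0.90 (SE 0.12). After the correction, the Cre libraries lay above the GFP libraries for 9 of 10 genes in females, where Zfp703 overlapped, and for 8 of 10 in males, where Mex3a and Icam5 overlapped. Over all genes with a known GC content this held for 6.82% in females and 15.5% in males, and the selection used this contrast.

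**Figure D3:**
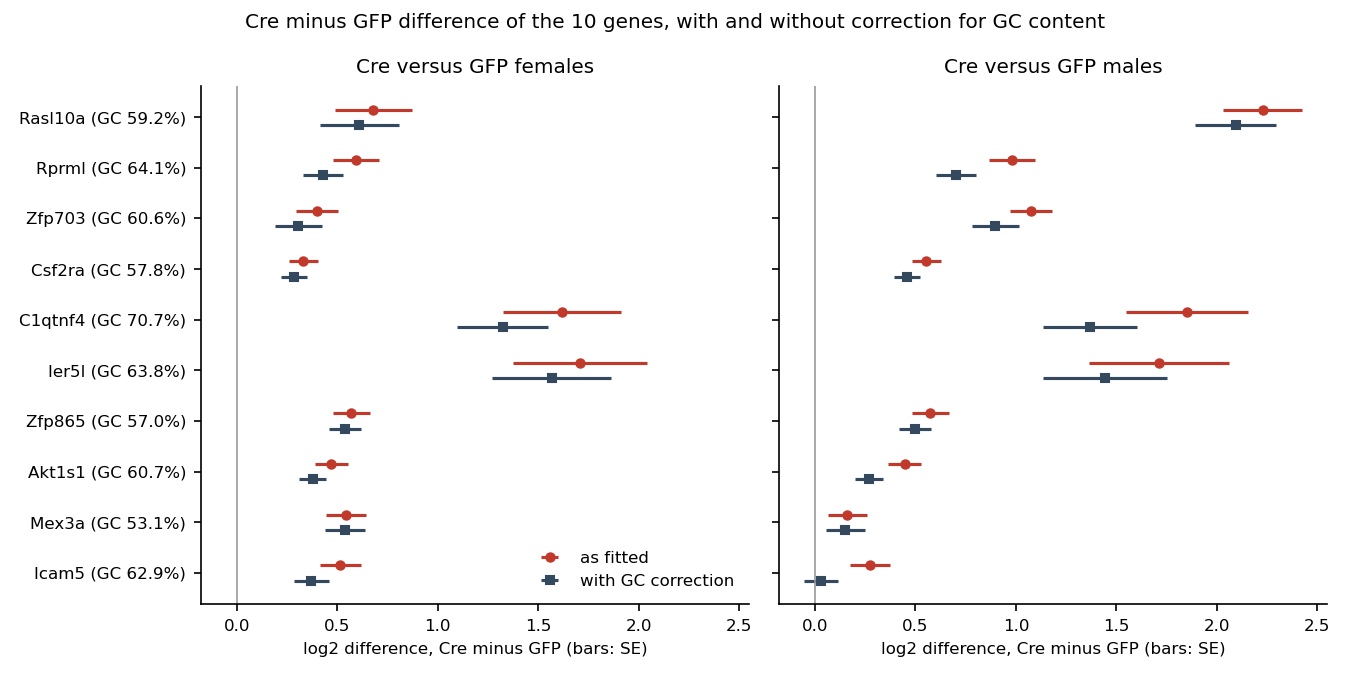
Log2 difference of Cre minus GFP for each gene in females (left) and males (right), as fitted (red circles) and with a GC correction of each library (dark squares), with bars for the SE. All corrected values are lower than the fitted ones and above 0, and the male value of Icam5 moves to 0.03.

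Markers of cortical excitatory neurons were also higher with Cre in males. The summed level of 10 markers of cortical excitatory neurons was 267 to 615 CPM in Cre males, against 44.1 to 58.4 CPM in GFP males. Of these 10 markers, 9 were called higher in Cre males, against 3.68% of all genes. In females this sum overlapped, at 45.1 to 91.1 CPM in Cre and 46.8 to 74.5 CPM in GFP libraries, and 0 of the 10 markers were called by edgeR (1 at an unadjusted p under 0.05, 0 by DESeq2). The 7 choroid plexus markers summed to 75.5 to 2056 CPM in Cre males, against 54.8 to 72.1 CPM in GFP males, with 0 of the 7 called by edgeR (5 at an unadjusted p under 0.05, 4 by DESeq2). Among wild-type control males alone this sum ran from 44.3 to 2617 CPM. It was 45.0 to 61.9 CPM in Cre females, against 52.4 to 54.9 CPM in GFP females. The 12 markers of medium spiny neurons, the main neurons of the accumbens, overlapped in their sum, at 3532 to 6337 CPM in Cre males, against 6235 to 6686 CPM in GFP males. In males 0 of the 12 were called by edgeR (0 at an unadjusted p under 0.05, 0 by DESeq2). However, 0 of the 12 had a positive log2 difference in males (median −0.31), against 50.9% of all genes. In females 11 of the 12 were positive (median 0.15), against 50.1% of all genes. The 7 astrocyte markers summed to 4178 to 4423 CPM in Cre males, against 3949 to 4018 CPM in GFP males, with 0 of the 7 called by edgeR (1 at an unadjusted p under 0.05, 1 by DESeq2). The 10 microglia markers, of the cells in which Csf2ra is best known in brain, overlapped at 541 to 864 CPM in Cre females, against 634 to 905 CPM in GFP females. In males they overlapped at 587 to 873 CPM in Cre, against 595 to 680 CPM in GFP. However, 10 of the 10 were positive in males (median 0.23) and 1 in females (median −0.03). Of 6 oligodendrocyte markers, 6 were positive in males (median 0.23) and 0 in females (median −0.11). Of the 7 astrocyte markers, 7 were positive in males and 3 in females. In either sex 0 microglia and 0 oligodendrocyte markers were called by edgeR or DESeq2. No marker of these lists was at 0 in all libraries of a group. The part of neighbouring tissue in the male values of the 10 genes was not tested. Leaving out each male library in turn kept the male median of the 10 between 0.75 and 0.81. Every Cre male library had the higher cortical sum, and the selection used this contrast. This range therefore cannot show the part of neighbouring tissue.

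Some of the counts may hold reads of a neighbour, since the use of strand in counting is not stated. Gas2l1, on the opposite strand to Rasl10a, stood at 50.7, 47.0 and 53.4 CPM in Cre males, against 40.2, 37.1 and 34.6 CPM in GFP males, and was called higher (log2 0.43, SE 0.09, adjusted p = 0.0203, edgeR). In Cre females Gas2l1 stood at 56.0, 49.0 and 53.9 CPM, against 37.1, 41.3 and 46.4 CPM in GFP females. It was not called there (log2 0.35, SE 0.09, adjusted p = 0.509, edgeR). Tbc1d17, opposite Akt1s1, had log2 differences of −0.03 in females and −0.01 in males. Zfp784, opposite Zfp865, had 0.04 and −0.27, and Ccdc106, which overlaps Zfp865 on its own strand, had 0.10 and −0.20. Zfp703, Icam5 and Mex3a overlap annotated noncoding or microRNA genes, and Rprml, Csf2ra, C1qtnf4 and Ier5l overlap no annotated gene.

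In wild-type mice, no stress difference was detectable in the 10 genes. By edgeR, 0 of 10 were called in females and 0 in males, against 0% and 0.00656% of 15249 genes tested. None of the 10 had an unadjusted p under 0.05, against 256 of all genes in females and 429 in males. None was called by DESeq2 in either sex. The stressed and control libraries overlapped for all 10 genes in both sexes, where 2.72% of all genes lay higher and 2.58% lower without overlap in females, and 3.67% and 4.24% in males. Same-numbered stressed and control females were taken as pairs because they deviated together in these counts, a pairing inferred from the counts themselves. Of the 10 genes, 6 (Rasl10a, Zfp703, Csf2ra, Zfp865, Akt1s1 and Icam5) were lower in the stressed library in all 3 pairs, as were 13.6% of all genes. None was higher in all 3 pairs, as were 14.5% of all genes. The share of counts in the top GC decile of genes was also lower in the stressed library in 2 of these pairs, at 11.1% against 12.1% and 8.87% against 9.37%, and was 7.65% against 7.47% in pair 3, and its part in these values was not tested. With the pairs as a block, 0 of the 10 were called (adjusted p = 0.998 for each, edgeR). The median log2 difference of the 10 was −0.11 in females, with 2 positive and 8 negative, and −0.03 in males, with 4 positive and 6 negative. It was −0.01 and 0.00 over all genes. The sign of these medians was not stable, since leaving out single libraries gave −0.35 to 0.11 in females and −0.13 to 0.13 in males. In males it was 0.0203 with the GC correction, with 6 genes positive, and 0.00688 with the replicate block. The adjusted p of each of the 10 was 1.00 in each sex (edgeR).

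C1qtnf4 stood at 121, 69.8 and 47.3 CPM in stressed females, against 101, 83.0 and 40.8 CPM in control females (log2 0.08, SE 0.38). In stressed males it stood at 103, 63.6 and 95.8 CPM, against 127, 82.0 and 58.0 CPM in control males (log2 −0.02, SE 0.38). The spread within a group exceeded any difference between groups. Ier5l stood at 14.1, 6.46 and 3.76 CPM in stressed females, against 11.7, 9.05 and 4.46 CPM in control females (log2 −0.06, SE 0.51). It stood at 7.75, 3.80 and 10.5 CPM in stressed males, against 12.7, 9.12 and 4.597 CPM in control males (log2 −0.25, SE 0.50). Ier5l had the widest spread of the 10, with its highest wild-type library 3.75 times its lowest. Rasl10a stood at 9.48, 6.04 and 5.29 CPM in stressed females, against 10.9, 6.69 and 5.68 CPM in control females (log2 −0.17, SE 0.27). It stood at 8.43, 6.08 and 7.88 CPM in stressed males, against 6.89, 7.71 and 6.64 CPM in control males (log2 0.08, SE 0.27). Its stressed and control values interleaved in each sex.

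Csf2ra had the smallest unadjusted p among the 10 in females (0.27), at 29.1, 27.2 and 18.2 CPM in stressed and 32.5, 34.6 and 22.6 CPM in control females (log2 −0.27, SE 0.23). It stood at 26.4, 16.7 and 26.5 CPM in stressed males, against 30.3, 27.6 and 22.6 CPM in control males (log2 −0.21, SE 0.23). Zfp703 had the smallest in males (0.21), at 14.7, 9.88 and 12.4 CPM in stressed and 15.6, 12.4 and 18.0 CPM in control males (log2 −0.31, SE 0.24). Neither came near the threshold after adjustment over all genes. Zfp703 stood at 15.7, 12.2 and 11.96 CPM in stressed females, against 22.0, 13.5 and 12.3 CPM in control females (log2 −0.26, SE 0.24). Rprml stood at 40.1, 35.4 and 21.4 CPM in stressed females, against 27.2, 37.5 and 22.5 CPM in control females (log2 0.16, SE 0.26). In stressed males Rprml stood at 33.5, 27.9 and 43.2 CPM, against 38.8, 30.5 and 25.4 CPM in control males (log2 0.15, SE 0.26). For Rprml the difference was positive in both sexes and well within its error.

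Zfp865 stood at 30.6, 26.6 and 18.4 CPM in stressed females, against 40.0, 26.9 and 19.0 CPM in control females (log2 −0.18, SE 0.26). It stood at 25.4, 18.2 and 28.0 CPM in stressed males, against 28.8, 21.9 and 22.5 CPM in control males (log2 −0.03, SE 0.26). Library 1 of the control females set the top of its range. Akt1s1 stood at 28.6, 21.0 and 19.9 CPM in stressed females, against 32.2, 23.0 and 20.0 CPM in control females (log2 −0.12, SE 0.24). It stood at 23.7, 14.8 and 26.8 CPM in stressed males, against 27.2, 19.1 and 24.1 CPM in control males (log2 −0.11, SE 0.24). These groups overlapped too. Mex3a stood at 6.09, 8.02 and 9.46 CPM in stressed females, against 9.53, 7.61 and 7.30 CPM in control females (log2 −0.05, SE 0.22). It stood at 5.59, 6.73 and 7.88 CPM in stressed males, against 4.90, 7.06 and 6.47 CPM in control males (log2 0.13, SE 0.22). Mex3a was the 1 gene of the 10 that was lowest in library 1 of the stressed females. Icam5 stood at 209, 154 and 119 CPM in stressed females, against 212, 169 and 136 CPM in control females (log2 −0.10, SE 0.22). It stood at 176, 129 and 198 CPM in stressed males, against 176, 142 and 174 CPM in control males (log2 0.03, SE 0.22).

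**Figure D4:**
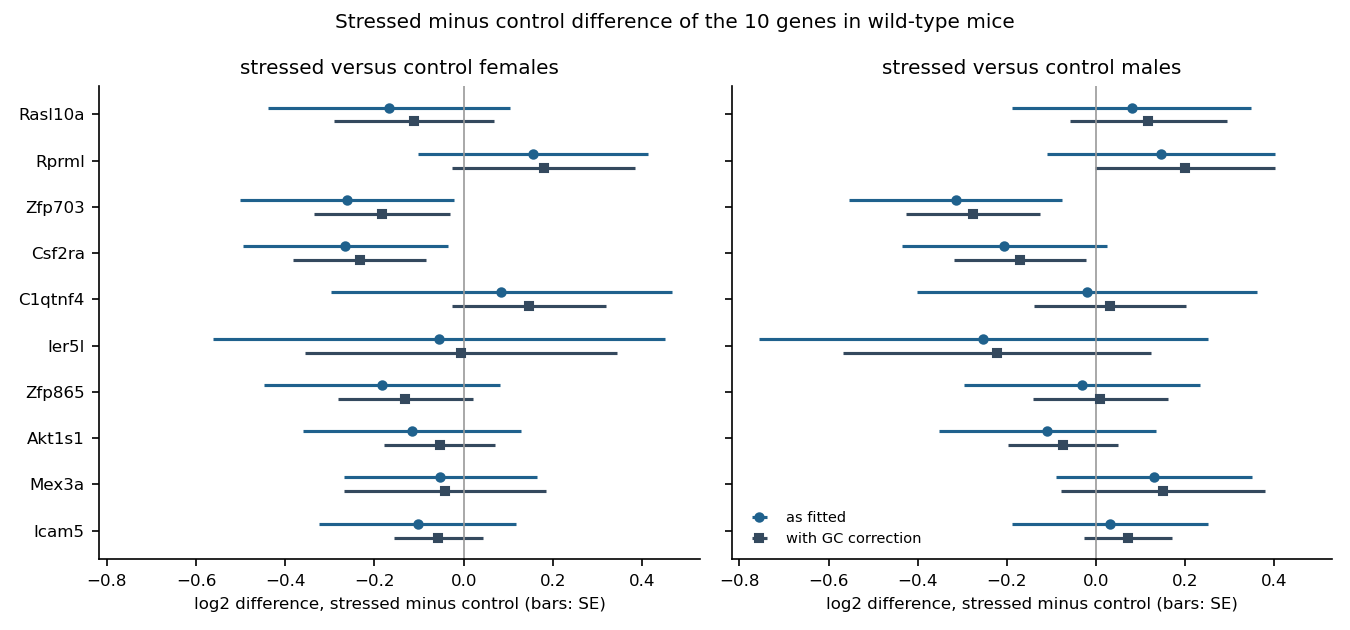
Log2 difference of stressed minus control for each gene in wild-type females (left) and males (right), as fitted (blue circles) and with a GC correction of each library (dark squares), with bars for the SE. The values scatter around 0, from −0.31 to 0.16 as fitted, and the bars of most genes are shorter after the correction.

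In 3 of the 4 wild-type groups most of the 10 genes stood lowest in the library with the smallest share of counts in GC-rich genes. Library 3 of the stressed females was the lowest of its group for 9 of 10 genes, library 3 of the control females for 10, and library 2 of the stressed males for 9. In these libraries the top GC decile of genes took 7.65%, 7.47% and 7.45% of the counts. Library 1 of the stressed females was the highest of its group for 9 genes and library 1 of the control females for 8, with shares of 11.1% and 12.1%, as was library 1 of the control males for 7 genes, with 10.96%. Other libraries did not follow this order. Among stressed males, library 3 was the highest for 7 genes with a share of 10.2%, while library 1 had 10.5% and was the highest for 3. Among control males, library 3 was the lowest for 5 genes with 9.31%, while library 2 had 8.90% and was the lowest for 4. With the GC correction, the SD of the mean log2 CPM of the 10 genes fell to 0.11 in stressed females (0.37 before it) and 0.07 in control females (0.40 before it). It fell to 0.11 in stressed males (0.33 before it) and 0.09 in control males (0.18 before it). The SE of the stress difference was smaller with the correction for 9 of the 10 genes in each sex, Mex3a being the exception, with a median SE of 0.16 against 0.25. Stress differences lay between −0.28 and 0.20 after the correction, and 1 gene, Zfp703 in males, then had stressed libraries all below the control libraries, as did 5.89% of all genes with a known GC content, without passing the test.

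In the floxed libraries, the top GC decile took 9.30% to 9.69% of counts in Cre females, against 8.52% to 9.33% in GFP females. It took 8.996% to 9.63% in Cre males, against 8.25% to 9.11% in GFP males, so these shares overlapped narrowly in both sexes. The median log2 CPM of genes in this decile, less their median over the experiment, did not overlap in males. It was 0.10 to 0.14 in Cre males, against −0.20 to −0.06 in GFP males. In females it was 0.05 to 0.06 in Cre, against −0.10 to 0.08 in GFP libraries. The mean log2 CPM of the 10 genes after the correction was 4.19 to 4.39 in Cre females, against 3.47 to 3.75 in GFP females, and 4.16 to 4.33 in Cre males, against 3.47 to 3.502 in GFP males. Set side by side, all 6 GFP libraries lay below all 12 wild-type libraries for 4 of the 10 genes (Rasl10a, Rprml, C1qtnf4 and Ier5l), against 7.71% of 14912 genes tested in both experiments. All 6 Cre libraries did so for 0 of the 10, against 6.32% of these genes. For Rprml this rested on the top of the Cre range, at 17.5 to 21.6 CPM in Cre and 21.4 to 43.2 CPM in wild-type libraries. C1qtnf4 also had Cre libraries below the wild-type range, at 25.3 to 56.1 CPM in Cre and 40.8 to 127 CPM in wild-type libraries. The Cre libraries lay within the wild-type range for 6 of the 10, against 39.9%. Each experiment was scaled apart, and the GFP levels are part of the contrast used for the selection.

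**Figure D5:**
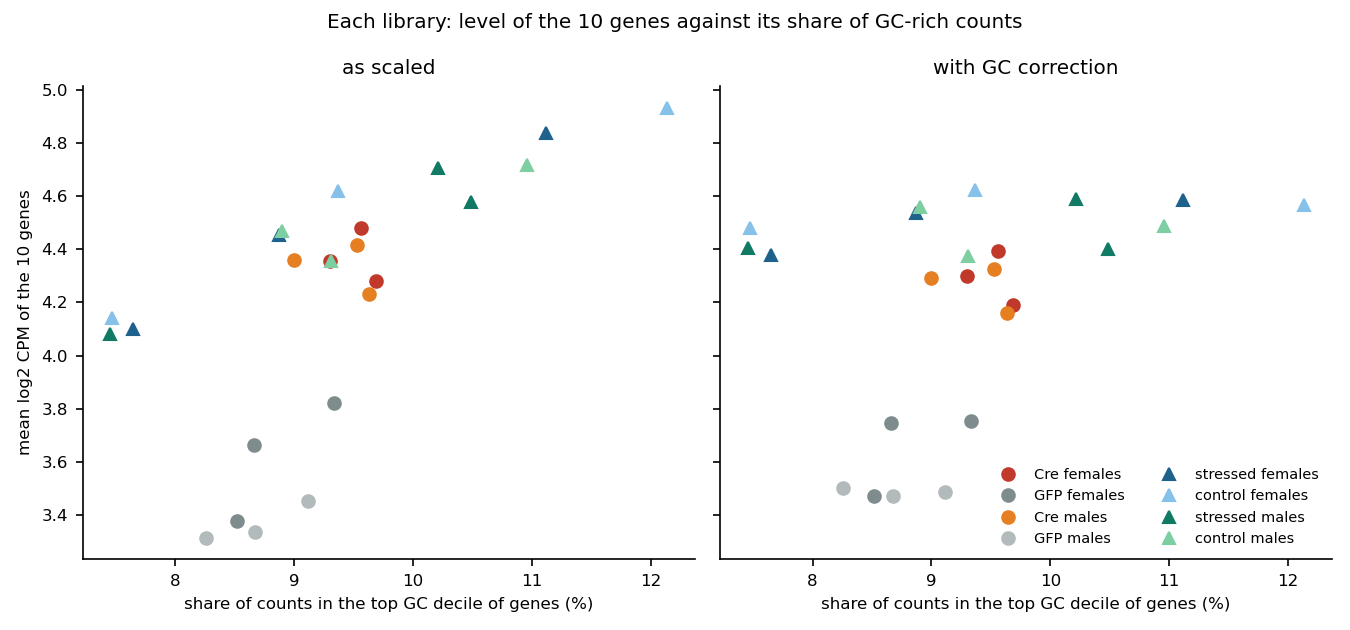
Mean log2 CPM of the 10 genes (vertical axis) against the share of counts in the top GC decile of genes (horizontal axis, percent), one point per library, as scaled (left) and with a GC correction (right), with circles for floxed and triangles for wild-type libraries. On the left the wild-type triangles lie between 4.08 and 4.93, mostly higher at higher shares, and on the right they lie between 4.38 and 4.62, while Cre circles stay above GFP circles in both panels.

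No difference between females and males passed an adjusted p of 0.05 in the 10 genes. In wild-type mice 0 of 10 were called by edgeR, against 0.0393% of all genes, and 0 by DESeq2. An unadjusted p under 0.05 was reached by 0 of the 10, against 767 of all 15249 genes. Mex3a had the smallest p, with a female minus male log2 difference of 0.32 (SE 0.15, adjusted p = 0.971, edgeR). In floxed mice 0 of 10 were called by edgeR or DESeq2, against 0.0682% of all genes by edgeR. An unadjusted p under 0.05 was reached by 4 of the 10, against 1175 of all 17597 genes, in the libraries that the selection used. Csf2ra had the smallest, with a female minus male difference of 0.17 (SE 0.05, adjusted p = 0.463, edgeR). The stress effect differed between the sexes for 0 of 10 genes and for 0% of all genes (182 at an unadjusted p under 0.05, 0 by DESeq2), and Rasl10a had the smallest p (log2 −0.25, SE 0.38, adjusted p = 1.00, edgeR).

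Relatives of the 10 genes by family were counted in the same way. Of 19 tested relatives, 1 was called higher and 0 lower in Cre males, against 3.68% and 1.28% of all genes. In Cre females 0 were called (5 at an unadjusted p under 0.05, 0 by DESeq2). The median log2 difference of the relatives was 0.26 in males and 0.04 in females. The one called was Mex3d, a paralogue of Mex3a, at 9.01, 10.5 and 11.1 CPM in Cre males, against 7.48, 7.44 and 7.29 CPM in GFP males (log2 0.46, SE 0.10, adjusted p = 0.0253, edgeR). Its GC content was 62.1%. The call was lost with the GC correction (log2 0.24, adjusted p = 0.218) and without Cre male library 2 or any of the 3 GFP male libraries (adjusted p of 0.0704 to 0.0937). The other Mex3 paralogues had male differences of 0.28 (Mex3b) and −0.07 (Mex3c). Rasl10b, the closest relative of Rasl10a, had log2 differences of 0.20 in females and −0.22 in males. Rprm had −0.14 and 0.37, Zfp503 had 0.46 and −0.03, Ier5 had 0.31 and 0.26, and Icam2 had −0.04 and −0.33. None of these passed the test. Icam4 and C1qtnf5 had 0 counts in all floxed libraries.

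The pathways around single members were also counted. Of 20 tested mTORC1 pathway genes, 0 were called in either sex by edgeR (1 in females and 5 in males at an unadjusted p under 0.05, with 0 and 3 called by DESeq2), and their median log2 differences were 0.01 in females and −0.03 in males. Mtor, Rptor and Akt1, the kinase, its scaffold and the kinase that phosphorylates PRAS40, had male log2 differences of −0.06, 0.08 and 0.00. Ddit4 had the smallest p in females (log2 0.32, adjusted p = 0.590, edgeR) and Deptor, an mTOR inhibitor, in males (log2 0.42, adjusted p = 0.0814 by edgeR and 0.0373 by DESeq2). Of 9 tested genes of the GM-CSF receptor pathway, 0 were called in females (0 at an unadjusted p under 0.05, 0 by DESeq2). In males 1 of the 9 was called, against 4.96% of all genes. Jak2, the kinase bound to the shared beta chain, fell by 0.25 on the log2 scale in Cre males (SE 0.06, adjusted p = 0.0380, edgeR). With the GC correction the log2 difference was −0.20 and missed the threshold (adjusted p = 0.0847), as it did without Cre male library 1 or 2 or any of the 3 GFP male libraries (adjusted p of 0.0827 to 0.115). The beta chain Csf2rb had log2 differences of −0.45 in females and 0.37 in males, with SEs of 0.38.

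Of 12 ligands and partners of Icam5, 0 were called by edgeR in either sex (1 and 3 at an unadjusted p under 0.05, 0 and 1 by DESeq2). Ezr, which links membrane proteins to actin, had the smallest p in females (log2 0.22, adjusted p = 0.649) and Mmp2, a protease, in males (log2 0.90, adjusted p = 0.0532, both edgeR, and 0.0154 by DESeq2). Of 12 p53 genes (Trp53, which encodes p53, and its targets), 0 were called in females, where Bbc3 had the smallest p (log2 0.69, adjusted p = 0.674, edgeR). In females 1 of the 12 was at an unadjusted p under 0.05 and 0 were called by DESeq2. In males 1 of the 12 was called by edgeR, against 4.96% of all genes (5 at an unadjusted p under 0.05, 2 by DESeq2). A positive log2 difference was seen for 11 of the 12 in males (median 0.32) and 7 in females (median 0.05). Phlda3, an inhibitor of Akt signalling with 62.6% GC, was higher in Cre males (log2 0.80, SE 0.17, adjusted p = 0.0240, edgeR). With the GC correction the log2 difference was 0.57 and missed the threshold (adjusted p = 0.0903), as it did without Cre male library 2 or any of the 3 GFP male libraries (adjusted p of 0.0652 to 0.101). Of 12 genes of the DNA methylation machinery, 0 were called in females, where Uhrf1 had the smallest p (log2 0.59, adjusted p = 0.630, edgeR; 2 at an unadjusted p under 0.05, 0 by DESeq2). In males Dnmt3a and Tet2 were called lower, as were 1.28% of all genes, Tet2 by 0.27 (SE 0.05, adjusted p = 0.0185, edgeR). The Tet2 call was lost without Cre male library 1 or 2 or any of the 3 GFP male libraries (adjusted p of 0.0538 to 0.0775).

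In wild-type mice 0 genes of these 6 lists were called by edgeR or DESeq2 for stress, sex or their interaction, and 0 to 2 of a list had an unadjusted p under 0.05. In stressed females the smallest p of each list belonged to Mex3b (log2 −0.45), Akt2 (−0.17), Csf2rb2 (−0.58), Ezr (−0.46), Phlda3 (0.51) and Tet3 (−0.18). In stressed males it belonged to Icam1 (−0.62), Deptor (−0.30), Csf2rb2 (−0.42), Ezr (−0.40), Gadd45a (−0.50) and Tet3 (−0.22). For the difference of the stress effect, females minus males, it belonged to Icam1 (0.97), Deptor (0.30), Cish (0.54), Itgb1 (0.38), Trp53 (0.33) and Uhrf1 (0.57). All of these had an adjusted p of 1.00 (edgeR). Between the sexes it belonged in wild-type mice to Csf2rb2 (female minus male 0.75, in both lists that hold it), Ddit4 (−0.25), Vtn (−0.22), Bax (−0.27) and Dnmt1 (0.25), with adjusted p of 0.971 to 0.991. In floxed mice it belonged to Zfp503 (0.30), Ddit4 (0.17), Cish (0.27), Vtn (0.17), Mdm2 (0.07) and Uhrf1 (−0.53), with 0 called by edgeR. Uhrf1, which brings Dnmt1 to newly copied DNA, had an adjusted p of 0.243 by edgeR and 0.0325 by DESeq2.

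The genes closest to the 10 in pattern were sought over the 8 group means, centred within each experiment, among 14912 genes tested in both. Ier2, Lhx2, Map1s, Zfp36l1 and Fzd8 lay nearest to the median profile of the 10, with root mean square differences of 0.078, 0.078, 0.082, 0.085 and 0.087 on the log2 scale. This likeness was over group means only. The profile came from genes picked for higher values with Cre, so the search itself favoured genes with positive Cre differences, and those below are a description. Ier2, an immediate early gene and a relative of Ier5l, had log2 differences of 0.48 in Cre females and 0.59 in Cre males (SE 0.25 in each). Ier2 was low, at means of 1.68 CPM in Cre of each sex, and its Cre and GFP libraries overlapped in both sexes. Lhx2, a transcription factor of forebrain development, had 0.46 and 0.48, and Map1s, a microtubule-associated protein, had 0.57 and 0.63. Zfp36l1, an RNA-binding protein that promotes mRNA decay, had 0.43 and 0.54, and Fzd8, a Wnt receptor, had 0.31 and 0.72. Ier2, Lhx2 and Map1s also had GC contents of 60.9%, 58.5% and 62.1%, while Zfp36l1 and Fzd8 had 49.0% and 51.7%.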

How the data were processed

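Whole-number counts of each Ensembl gene in 24 libraries were used as deposited by the authors, unscaled. The submitters' processing notes name HTSeq 0.6.0, TopHat2 2.0.9 and Bowtie2 2.1.0, and as builds mm9 and NCBIM37, and the strand setting is not given in the sources used here. Symbols, GC content and overlaps came from GENCODE M21, matched by Ensembl ID (32938 IDs with a symbol, 32919 with GC content), and promoters from RefSeq.

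Each experiment was fitted apart in edgeR 4.0.16 (R 4.3.3): filterByExpr, TMM scaling, a robust quasi-likelihood fit with a mean for each of 4 groups, and Benjamini-Hochberg adjustment over all genes tested, with calls at an adjusted p below 0.05. CPM used TMM-scaled library sizes, and log2 CPM a prior count of 2. The GC correction subtracted from each library a lowess curve (span 0.3) of its log2 CPM, less the mean over libraries, on GC content. Alternatives were DESeq2 1.42.0 with its size factors, no filter, the GC correction, a replicate block, 2 groups only and each library left out. The model code was tested on simulated data.

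Stressed and control females with the same replicate number deviated together (correlations of 0.59, 0.33 and 0.52), so their numbers were taken as pairs from the data; the block changed no call there. Each stressed male library also correlated best with the control male library of its number, but more weakly (0.34, 0.25 and 0.09). The males were not taken as pairs, so genes were not counted by pair in males. Library 1 also correlated between females and males, at 0.46 in stressed and 0.43 in control mice, so such likeness was not limited to stressed and control females. Same-numbered Cre and GFP libraries correlated at −0.45 to 0.09 in females and −0.11 to 0.11 in males.

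All 10 members are named, with the member of smallest p for the sex contrasts and the interaction, the called genes (otherwise the gene of smallest p) of each list in each contrast, and the 5 genes nearest in pattern. The members and lists were chosen with earlier results of these data known. Libraries are described as biological replicates of pooled mice in the labels.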

Additional observations from a re-analysis of the deposited data

How the results depend on the processing

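No alternative changed the sign of a Cre minus GFP difference of the 10 genes, and the median stayed at 0.47 to 0.64 in females and 0.75 to 0.81 in males with single libraries left out. The 10 genes were picked for higher values with Cre, so this stability is a description and no support. With the GC correction the male median was 0.60, with or without the replicate block. No member was called for stress, sex or their interaction under any alternative to which a test applied.

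Counts of called genes moved more. With DESeq2 they were 34 (Cre females), 1811 (Cre males), 2 (stressed females), 4 (stressed males), 13 (sex, wild-type) and 89 (sex, floxed), against 0, 872, 0, 1, 6 and 12. Without the filter they were 5, 3 and 14 for stress in females, stress in males and sex in wild-type mice. The GC correction gave 1 for stress in females and 11 for sex in wild-type mice. The replicate block gave 515 for Cre males, where Jak2 then missed the threshold (adjusted p = 0.0646). The block with the GC correction gave 322 for Cre males, 2 for stress in each sex and 29 for sex in wild-type mice. Fits of only the 2 groups compared gave 551 for Cre males and 0 for stressed males. Leaving out single libraries gave 93 (without GFP male library 2) to 1303 for Cre males, 9 to 92 for sex in floxed mice (92 without Cre male library 3), and 0 to 1 for stress in each sex. The cause was not tested.

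Uncalled stress differences changed sign in places. For C1qtnf4 in males the value was 0.0741 with the block, 0.0315 with the GC correction and 0.0571 with both. For Zfp865 in males it was 0.00915 with the GC correction and 0.0141 with the block added. With single libraries left out, the ranges in females were −0.45 to 0.16 (Rasl10a), −0.0256 to 0.38 (Rprml), −0.42 to 0.0431 (Zfp703), −0.35 to 0.36 (C1qtnf4), −0.70 to 0.28 (Ier5l), −0.41 to 0.14 (Zfp865), −0.29 to 0.11 (Akt1s1), −0.20 to 0.10 (Mex3a) and −0.34 to 0.0717 (Icam5). In males they were −0.0170 to 0.21 (Rasl10a), −0.0360 to 0.32 (Rprml), −0.24 to 0.33 (C1qtnf4), −0.59 to 0.12 (Ier5l), −0.16 to 0.13 (Zfp865), −0.28 to 0.10 (Akt1s1), −0.00553 to 0.25 (Mex3a) and −0.10 to 0.19 (Icam5). The Rasl10a interaction ranged from −0.53 to 0.0680. The median of the 10 changed sign with single libraries left out, at −0.35 to 0.11 in females and −0.13 to 0.13 in males. Wild-type libraries held fewer counts than floxed ones. The median SE of the stress difference was 0.25 as fitted and 0.16 with the GC correction. The part of depth in these SEs was not tested.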
